A study of Mus musculus with 6 samples.

Results

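RNA precipitated by a ribosome tag meant for neural crest derivatives was compared with RNA of whole diaphragm muscle that lacks Schwann cells, in mouse embryos at E14.75. Tagged RNA here means all RNA of the precipitate, in which muscle transcripts were abundant too. The libraries were taken by the genotype in their labels. They were 2 of Wnt1-Cre, Ribotag, erbB3 wild-type muscle, called Wnt1-Ribotag, and 2 of erbB3 KO muscle, called erbB3 mutant, which makes 4 of the 6 libraries of the series. The other libraries, 5 and 6, were of erbB3 wild-type whole muscle at the same age. Of 23073 genes with a value, 14325 had a mean of at least 0.5 RPKM over the 4 libraries and were tested. RPKM, reads scaled to gene length and to the mapped reads of a library, were used as log2(RPKM + 0.5), a scale that understates the change of low genes. The comparison asked which transcripts were higher in tagged RNA than in muscle without Schwann cells, and how those of the Schwann lineage lay beside those of liver and of the RNA preparation.

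Schwann cells come from the neural crest, whose cells also give rise to melanocytes, sympathetic and enteric neurons and the chromaffin cells of the adrenal medulla. Their precursors migrate along motor axons and need the neuregulin receptor encoded by Erbb3, together with the transcription factor Sox10. In Ribotag mice a Cre recombinase switches the ribosomal protein gene Rpl22 to a form with a hemagglutinin tag, so that translated RNA of the recombined cells can be precipitated.

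Wnt1-Cre acts in the neural crest and in the descendants of its cells, and therefore marks more than Schwann cells. The Wnt1-Ribotag embryos were hemizygous for the Ribotag allele, and all diaphragms of a litter were homogenized together for each library. According to the paper, later genotyping found only part of these embryos Cre-positive, so the homogenate also held diaphragms without tagged ribosomes. Their part in the results was not tested. Ribosomes were precipitated with an antibody against hemagglutinin, and the libraries were made from far less RNA than those of whole muscle. The erbB3 genotype, the Cre and Ribotag alleles and the RNA preparation thus differed together between the groups and cannot be told apart in this comparison. The wild-type libraries shared the preparation with the mutant and the erbB3 genotype with the tagged libraries, so their values are given beside many of the results. Comparisons with them share libraries with the main comparison. Against wild-type muscle, limma called 1 gene higher and 0 lower in tagged RNA of 14418 tested, with 2813 at an unadjusted p under 0.05, so differences from wild-type are given as values alone. In whole muscle, fewer cells of a type and less RNA per cell cannot be told apart.

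The depth implied by the values of genes without reads was 130755581 mapped reads in mutant 1, 230216660 in mutant 2, 122770245 in Wnt1-Ribotag 1 and 171266729 in Wnt1-Ribotag 2. Above that floor were 19739 and 20349 genes in the mutant and 17205 and 17945 in the Wnt1-Ribotag libraries. Across genes, the median absolute difference between replicates was 0.387 on the log2 scale in Wnt1-Ribotag and 0.187 in mutant muscle, so the tagged libraries differed more from each other.

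Erbb3 encodes the receptor that the mutant lacks (GRCm38 chromosome 10, bases 128567523 to 128589652). Its RPKM was 21.5 in mutant 1, 11.9 in mutant 2, 19.5 in Wnt1-Ribotag 1 and 25.3 in Wnt1-Ribotag 2. The groups overlapped (log2 fold change 0.46 ± 0.32 SE, limma adjusted p = 0.480, n = 2 libraries per group here and below), so the level of this transcript does not check the genotype. Rpl22, the gene that carries the tag, had 144 in mutant 1, 182 in mutant 2, 156 in Wnt1-Ribotag 1 and 135 in Wnt1-Ribotag 2, which also overlapped (log2 fold change -0.15 ± 0.24 SE, limma adjusted p = 0.760). Wnt1 itself, which marks the early crest, was below the filter, at 0.0159 in mutant 1, 0.0152 in mutant 2, 0.00569 in Wnt1-Ribotag 1 and 0.00408 in Wnt1-Ribotag 2, and at the floor in both Wnt1-Ribotag libraries. Sex-linked transcripts differed between libraries. Xist, from the inactive X chromosome, was at 146 in mutant 1, 0.0808 in mutant 2, 71.4 in Wnt1-Ribotag 1 and 52.8 in Wnt1-Ribotag 2, and the Y-linked Ddx3y at 0.00860 in mutant 1, 16.2 in mutant 2, 9.90 in Wnt1-Ribotag 1 and 7.97 in Wnt1-Ribotag 2. Mutant 1 had Xist with Ddx3y near 0, mutant 2 had Ddx3y with Xist near 0, and each pooled Wnt1-Ribotag library had both.

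In tagged RNA, 146 genes were higher than in erbB3 mutant muscle and 25 were lower at an adjusted p of 0.05 in limma, which is 1.02% and 0.175% of the 14325 genes tested. At least 2-fold higher in all 4 pairs of a Wnt1-Ribotag and a mutant library were 479 genes (3.34%), and at least 2-fold lower were 87 (0.607%). The log2 fold changes called higher ran from 1.39 to 9.37, and those called lower from -3.65 to -1.46. Of the 146 genes, 138 were annotated as protein coding, and 52 belonged to a gene list described here, beside 13267 and 417 of the 14325 genes tested. At an unadjusted p under 0.05 in limma, 1690 of all genes tested were higher (11.8%) and 1068 lower (7.46%). The shares of all genes given here stand beside the counts of the same kind, called, 2-fold or unadjusted, given for lists below. Over all genes tested the median fold change was 0.036 on the log2 scale. The lists hold the markers Sox10, Gpr17, Gjc3 and Afp, and were chosen with earlier results of these data known. Their counts and medians therefore describe these libraries and are no independent support. The number of calls depended on the libraries. It was 1785 higher and 753 lower without Wnt1-Ribotag 1, 1989 and 1683 without Wnt1-Ribotag 2, 146 and 7 without mutant 1, and 108 and 4 without mutant 2, where the lone library of a group is assumed to vary like the other group. At least 2-fold in all remaining pairs were 1024 higher and 306 lower, 1098 and 554, 715 and 184, and 559 and 147, in the same order. Without the filter on low values, 13 genes were called higher and 99 lower, and Sox10, Gpr17 and Afp were no longer called. Their fold changes were the same in that fit, with adjusted p in limma of 0.0593, 0.0631 and 0.0593. Genes with mutant values under 0.5 RPKM, among them Sox10, Pou3f1, Gjc3 and Gpr17, passed the filter only through their Wnt1-Ribotag values. The filter thus largely set the direction of their difference, and their calls and lack of overlap are description alone.

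**Figure D1:**
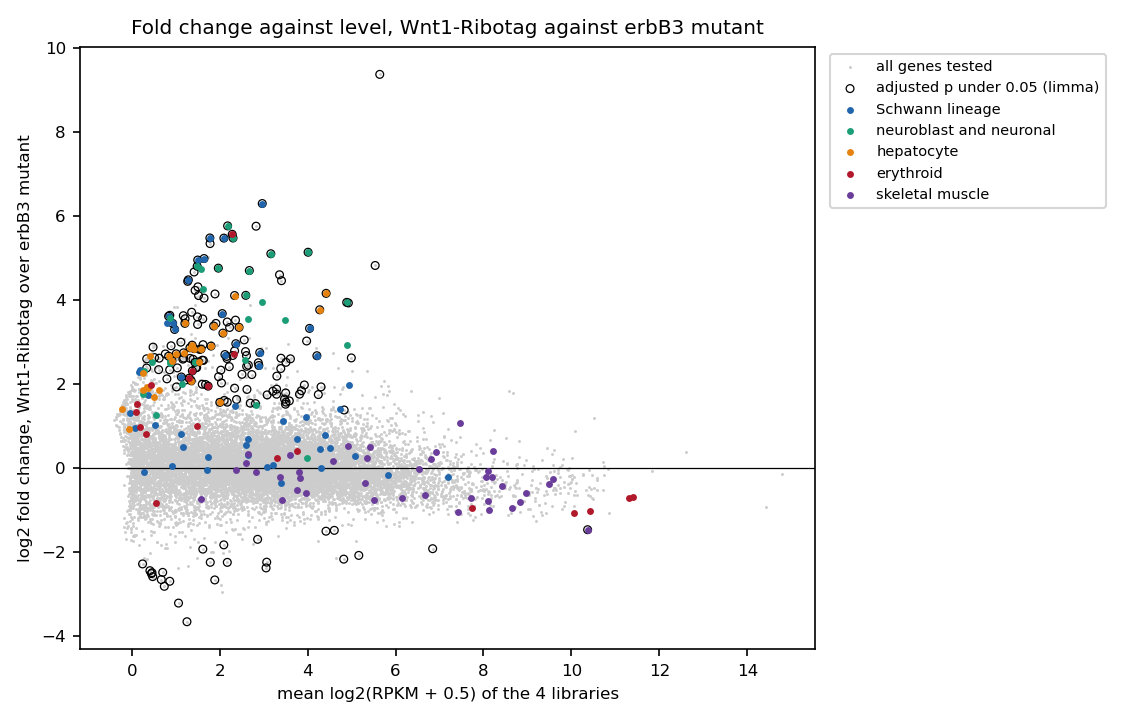
Log2 fold change of Wnt1-Ribotag over erbB3 mutant libraries against the mean log2(RPKM + 0.5) of the 4 libraries, 1 point per gene tested, with members of gene lists in color and the genes called by limma circled. Schwann lineage, neuronal and hepatocyte genes lie among the 146 genes called higher, and the skeletal muscle genes have a median of -0.22.

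Genes called higher included members of the Schwann lineage. Sox10, the transcription factor that the glial lineage requires, has its gene at GRCm38 chromosome 15, bases 79154908 to 79165240. Its RPKM was 0.00854 in mutant 1, 0.0178 in mutant 2, 15.5 in Wnt1-Ribotag 1 and 32.2 in Wnt1-Ribotag 2, and 2.89 in wild-type 5 and 2.16 in wild-type 6. The tagged libraries were the highest and the mutant libraries near 0, without overlap. The log2 fold change over the mutant was 5.48 ± 0.38 (SE; limma, adjusted p = 0.00641). Pou3f1, a regulator of the promyelinating stage, had an RPKM of 0.147 in mutant 1, 0.135 in mutant 2, 21.5 in Wnt1-Ribotag 1 and 36.4 in Wnt1-Ribotag 2, and 1.97 in wild-type 5 and 1.56 in wild-type 6. It rose by 5.48 ± 0.32 (SE; limma, adjusted p = 0.00460) on the log2 scale, in the same order of groups. Foxd3, a factor of crest cells and early glia, was at 1.97 in mutant 1, 0.670 in mutant 2, 9.02 in Wnt1-Ribotag 1 and 12.4 in Wnt1-Ribotag 2. It rose by 2.71 ± 0.40 (SE; limma, adjusted p = 0.0377). Here the mutant libraries held signal, and the wild-type values, 2.18 in wild-type 5 and 1.59 in wild-type 6, lay close to those of the mutant.

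Of the 20 Schwann lineage transcription factors listed, 19 were in the files and 17 were tested. The 3 genes above were called higher and 0 lower, against 1.02% and 0.175% of all genes. At least 2-fold higher in all pairs were 5, against 3.34% of all genes. The list's median log2 fold change was 0.71, beside 0.036 for all genes. Calls were 9 without Wnt1-Ribotag 1, 6 without Wnt1-Ribotag 2, 3 without mutant 1, 3 without mutant 2 and 0 without the filter on low values. Summed over the list, RPKM were 113 in mutant 1, 93.8 in mutant 2, 224 in Wnt1-Ribotag 1, 227 in Wnt1-Ribotag 2, 123 in wild-type 5 and 137 in wild-type 6. Yap1, which many tissues express, had the highest mean RPKM of the list, which is what most abundant means here and below. It lay below Tead1 in Wnt1-Ribotag 1 and below Pou3f1 in Wnt1-Ribotag 2. Yap1 overlapped between the groups, at 32.5 and 27.2 in mutant 1 and 2 and 43.4 and 31.01 in Wnt1-Ribotag 1 and 2. Tead1, the DNA-binding partner of Yap1, was at 17.9 and 14.1 in mutant 1 and 2 and 65.00 and 28.2 in Wnt1-Ribotag 1 and 2 and was not called (log2 fold change 1.40 ± 0.40 SE, limma adjusted p = 0.155), although 3 of 13 alternatives called it.

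Surface, secreted and myelin genes of the lineage gave 13 calls higher and 0 lower among 32 tested of 35 listed (all genes 1.02% and 0.175%). At least 2-fold higher in all pairs were 16 (all genes 3.34%). The median log2 fold change was 1.87. Calls were 24 without Wnt1-Ribotag 1, 19 without Wnt1-Ribotag 2, 14 without mutant 1, 13 without mutant 2 and 1 without the filter on low values, and 1 gene was called lower without Wnt1-Ribotag 2. Fabp7, a lipid-binding protein of glial precursors, had an RPKM of 0.393 in mutant 1, 0.372 in mutant 2, 35.2 in Wnt1-Ribotag 1 and 134 in Wnt1-Ribotag 2, and 2.998 in wild-type 5 and 3.93 in wild-type 6. It had the largest rise of the list's called members, 6.30 ± 0.57 (SE; limma, adjusted p = 0.0114). Gjc3, a connexin of myelinating glia at GRCm38 chromosome 5, bases 137953461 to 137963098, was at 0.0127 in mutant 1, 0.00361 in mutant 2, 13.9 in Wnt1-Ribotag 1 and 16.8 in Wnt1-Ribotag 2, and 1.27 in wild-type 5 and 1.40 in wild-type 6. The tagged libraries were close to each other and the fold change, 4.95 ± 0.28 (SE; limma, adjusted p = 0.00460), was called in 13 of 13 alternative fits. Gpr17, a G protein-coupled receptor known from oligodendrocyte precursors, has its gene at GRCm38 chromosome 18, bases 31942997 to 31949636. Its RPKM was 0.0183 in mutant 1, 0.0139 in mutant 2, 8.39 in Wnt1-Ribotag 1 and 14.5 in Wnt1-Ribotag 2, and 1.76 in wild-type 5 and 1.70 in wild-type 6, and it rose by 4.48 ± 0.35 (SE; limma, adjusted p = 0.00934). It lies inside Lims2, on the opposite strand, which was looked up after the values were seen and was called too (log2 fold change 3.60 ± 0.28 SE, limma adjusted p = 0.00934). Whether the counting used strand is not given in the sources used here, so reads of these genes cannot be told apart.

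Gfra3, a receptor subunit for artemin, was at 0.0115 in mutant 1, 0.101 in mutant 2, 7.98 in Wnt1-Ribotag 1 and 36.1 in Wnt1-Ribotag 2. Wnt1-Ribotag 2 was well above Wnt1-Ribotag 1, and both were above the mutant (log2 fold change 4.99 ± 0.64 SE, limma adjusted p = 0.0258). Ednrb, the endothelin receptor of crest cells, was at 4.29 in mutant 1, 5.16 in mutant 2, 36.4 in Wnt1-Ribotag 1 and 73.5 in Wnt1-Ribotag 2, without overlap (log2 fold change 3.33 ± 0.35 SE, limma adjusted p = 0.0148). S100b, a calcium-binding protein used to stain Schwann cells, was at 0.564 in mutant 1, 0.772 in mutant 2, 10.3 in Wnt1-Ribotag 1 and 20.04 in Wnt1-Ribotag 2, and also did not overlap (log2 fold change 3.68 ± 0.36 SE, limma adjusted p = 0.0136). Mal, a myelin proteolipid, was at 0.00592 and 0.0151 in mutant 1 and 2 and 4.60 and 7.19 in Wnt1-Ribotag 1 and 2. L1cam, an adhesion molecule of glia and axons, was at 0.0515 and 0.104 in mutant 1 and 2 and 3.82 and 8.67 in Wnt1-Ribotag 1 and 2. Lgi4, an adhesion ligand of glia, was at 0.115 and 0.137 in mutant 1 and 2 and 4.35 and 7.38 in Wnt1-Ribotag 1 and 2. In these genes the mutant values were under 0.5 and the groups did not overlap. They passed the filter only through their Wnt1-Ribotag values, which largely set that direction. Moxd1, a monooxygenase of crest cells, was at 2.39 and 2.40 in mutant 1 and 2 and 12.8 and 28.2 in Wnt1-Ribotag 1 and 2. Cadm4, which binds axons, was at 7.23 and 6.44 in mutant 1 and 2 and 33.2 and 64.7 in Wnt1-Ribotag 1 and 2, and Gas7, a cytoskeletal protein, at 2.63 and 2.73 in mutant 1 and 2 and 18.4 and 15.3 in Wnt1-Ribotag 1 and 2. They were present in the mutant too, below each tagged library. Log2 fold changes of Mal, L1cam, Lgi4, Moxd1, Cadm4 and Gas7 were 3.62, 3.45, 3.30, 2.75, 2.68 and 2.45, with adjusted p from limma between 0.0136 and 0.0310. Lgi4 overlaps Fxyd3 in the annotation, so that their reads may be shared.

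Not all members were higher in tagged RNA. Pmp22, a myelin protein that mesenchyme also expresses, was at 58.2 and 60.8 in mutant 1 and 2 and 48.3 and 57.6 in Wnt1-Ribotag 1 and 2 (log2 fold change -0.17 ± 0.22 SE, limma adjusted p = 0.697). Cryab, a chaperone abundant in muscle and the most abundant gene of the list, was at 174 and 141 in mutant 1 and 2 and 120.1 and 151 in Wnt1-Ribotag 1 and 2 (log2 fold change -0.22 ± 0.24 SE, limma adjusted p = 0.654). Both transcripts were thus present in muscle of the mutant at the level of tagged RNA. Together the members had an RPKM of 381 in mutant 1, 320.3 in mutant 2, 565 in Wnt1-Ribotag 1, 922 in Wnt1-Ribotag 2, 376 in wild-type 5 and 345 in wild-type 6. Over the list the median log2 differences were 1.87 for Wnt1-Ribotag over mutant, 1.28 for Wnt1-Ribotag over wild-type and -0.51 for mutant over wild-type. For the transcription factors they were 0.71 for Wnt1-Ribotag over mutant, 0.42 for Wnt1-Ribotag over wild-type and -0.30 for mutant over wild-type. Of the 10 melanocyte genes, another crest fate, 2 passed the filter and 0 were called by limma, with 0 at an unadjusted p under 0.05. The higher calls were 0 without Wnt1-Ribotag 1, 1 without Wnt1-Ribotag 2, 0 without mutant 1 and 0 without mutant 2. Their summed RPKM was 2.87 in mutant 1, 1.95 in mutant 2, 3.95 in Wnt1-Ribotag 1, 4.72 in Wnt1-Ribotag 2, 3.17 in wild-type 5 and 3.29 in wild-type 6.

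**Figure D2:**
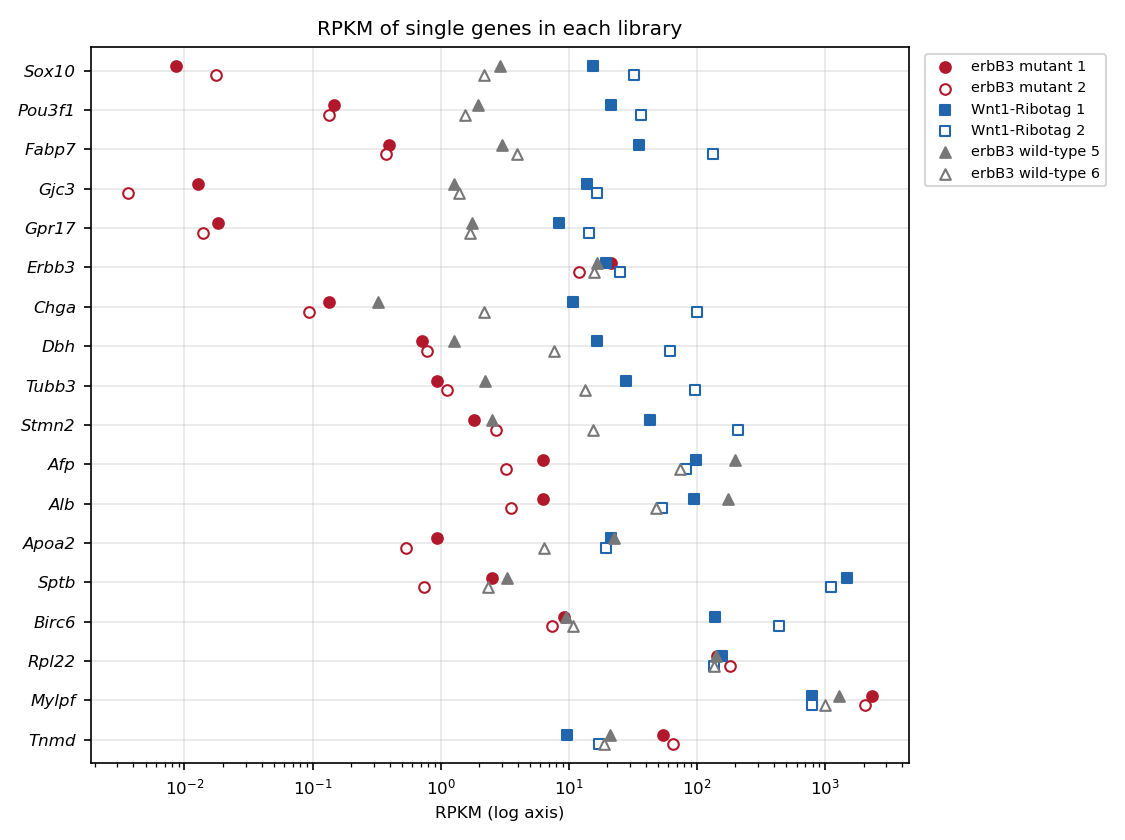
RPKM of single genes in each of the 6 libraries on a log axis, with color and marker for the group and a filled or open marker for the replicate. Sox10 lies at 15.5 and 32.2 in both Wnt1-Ribotag libraries and near 0 in the mutant, Afp is highest in wild-type 5, and Sptb is at 1114 or above in the Wnt1-Ribotag libraries alone.

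Some neuronal genes were called higher in tagged RNA as well, and their values differed between replicates. The paper gives E14.75 as the age of maximal denervation of erbB3 mutant diaphragm, so motor axons may have differed between the groups too. The part of denervation in these values was not tested. Of 11 sympathetic and enteric neuroblast genes listed and tested, 5 were called higher and 0 lower (all genes 1.02% and 0.175%). At least 2-fold higher in all pairs were 10 (all genes 3.34%), and the median log2 fold change was 3.52. The higher calls became 10 without Wnt1-Ribotag 1, 8 without Wnt1-Ribotag 2, 7 without mutant 1 and 6 without mutant 2, 1 with quantile normalization and 0 without the filter on low values. Chga, a granule protein of chromaffin cells and sympathetic neurons, had an RPKM of 0.135 in mutant 1, 0.0945 in mutant 2, 10.7 in Wnt1-Ribotag 1 and 99.4 in Wnt1-Ribotag 2, and 0.323 in wild-type 5 and 2.17 in wild-type 6. It was higher in Wnt1-Ribotag 2 than in 1 and in wild-type 6 than in 5 (log2 fold change 5.77 ± 0.90 SE, limma adjusted p = 0.0456). Dbh, which makes noradrenaline, was at 0.717 in mutant 1, 0.785 in mutant 2, 16.7 in Wnt1-Ribotag 1 and 61.5 in Wnt1-Ribotag 2, and 1.26 in wild-type 5 and 7.64 in wild-type 6. It too was higher in Wnt1-Ribotag 2 and in wild-type 6 than in the other library of the group (log2 fold change 4.70 ± 0.56 SE, limma adjusted p = 0.0198). Phox2a, a transcription factor of autonomic neurons, was at 0.288 and 0.218 in mutant 1 and 2 and 9.71 and 40.3 in Wnt1-Ribotag 1 and 2. It was higher in each tagged library and rose by 4.76 ± 0.60 (SE; limma, adjusted p = 0.0246). Slc18a2, the vesicular monoamine transporter, was at 0.643 and 0.619 in mutant 1 and 2 and 4.41 and 8.07 in Wnt1-Ribotag 1 and 2. It rose by 2.52 ± 0.35 (SE; limma, adjusted p = 0.0319). Hand2 was at 2.54 and 3.08 in mutant 1 and 2 and 18.7 and 74.7 in Wnt1-Ribotag 1 and 2 and did not pass (log2 fold change 3.52 ± 0.59 SE, limma adjusted p = 0.0530), although 8 of 13 alternatives called it.

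Among 16 pan-neuronal and motor axon genes tested of 20 listed, 5 were called higher and 0 lower (all genes 1.02% and 0.175%). At least 2-fold higher in all pairs were 13 (all genes 3.34%), and the median log2 fold change was 3.56. For this list the higher calls were 16 without Wnt1-Ribotag 1, 14 without Wnt1-Ribotag 2, 10 without mutant 1 and 8 without mutant 2, 1 with quantile normalization and 0 without the filter. Tubb3, the neuronal beta-tubulin, was at 0.937 in mutant 1, 1.12 in mutant 2, 28.1 in Wnt1-Ribotag 1 and 96.1 in Wnt1-Ribotag 2, and 2.23 in wild-type 5 and 13.5 in wild-type 6 (log2 fold change 5.10 ± 0.53 SE, limma adjusted p = 0.0140). Stmn2, a growth cone protein, was at 1.81 in mutant 1, 2.69 in mutant 2, 42.9 in Wnt1-Ribotag 1 and 211 in Wnt1-Ribotag 2, and 2.51 in wild-type 5 and 15.5 in wild-type 6 (log2 fold change 5.14 ± 0.68 SE, limma adjusted p = 0.0268). Wnt1-Ribotag 2 was again the highest library and wild-type 6 the highest of whole muscle, while the groups compared did not overlap. Stmn3 was at 0.0905 and 0.426 in mutant 1 and 2 and 14.1 and 73.9 in Wnt1-Ribotag 1 and 2, Gap43 at 6.55 and 7.58 in mutant 1 and 2 and 56.1 and 239 in Wnt1-Ribotag 1 and 2 and Prph, a filament of peripheral neurons, at 0.615 and 1.39 in mutant 1 and 2 and 11.7 and 51.4 in Wnt1-Ribotag 1 and 2. Without overlap, Stmn3 rose by 5.48 ± 0.71 (SE; limma, adjusted p = 0.0262), Gap43 by 3.95 ± 0.61 (SE; limma, adjusted p = 0.0444) and Prph by 4.11 ± 0.65 (SE; limma, adjusted p = 0.0470). Uchl1 was at 10.4 and 10.1 in mutant 1 and 2 and 37.3 and 176 in Wnt1-Ribotag 1 and 2 and was not called (log2 fold change 2.93 ± 0.65 SE, limma adjusted p = 0.103), although 4 of 13 alternatives called it. Outside the lists, the neuropeptide gene Npy was at 0.172 in mutant 1, 0.887 in mutant 2, 22.6 in Wnt1-Ribotag 1 and 118 in Wnt1-Ribotag 2, and 0.726 in wild-type 5 and 13.4 in wild-type 6 (log2 fold change 5.76 ± 0.75 SE, limma adjusted p = 0.0262). Resp18, a protein of endocrine granules, was at 0.00995 and 0.0509 in mutant 1 and 2 and 8.75 and 19.2 in Wnt1-Ribotag 1 and 2. It rose by 4.67 ± 0.41 (SE; limma, adjusted p = 0.0114). The calls of Chga, Gap43 and Prph were lost under 5 of 13 alternatives each.

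The summed RPKM of the neuroblast list was 23.3 in mutant 1, 16.5 in mutant 2, 89.03 in Wnt1-Ribotag 1, 393 in Wnt1-Ribotag 2, 16.8 in wild-type 5 and 48.4 in wild-type 6. For the neuronal list it was 29.3 in mutant 1, 35.6 in mutant 2, 240.3 in Wnt1-Ribotag 1, 1076 in Wnt1-Ribotag 2, 42.5 in wild-type 5 and 137 in wild-type 6. Gap43 had the highest mean RPKM of that list, although Uchl1 was above it in both mutant libraries. Median log2 differences of the neuroblast list were 3.52 for Wnt1-Ribotag over mutant, 2.49 for Wnt1-Ribotag over wild-type and -1.12 for mutant over wild-type. For the neuronal list they were 3.56 for Wnt1-Ribotag over mutant, 2.30 for Wnt1-Ribotag over wild-type and -1.30 for mutant over wild-type. In both lists Wnt1-Ribotag 2 was above Wnt1-Ribotag 1, and the part of this difference in the Schwann lineage results was not tested. Of the neuronal list, 3 members in the files were below the filter. Among them, Chat, which makes acetylcholine, had an RPKM of 0.0130 in mutant 1, 0.0564 in mutant 2, 0.00359 in Wnt1-Ribotag 1 and 0.0437 in Wnt1-Ribotag 2, and Mnx1 was at 0.00391 in mutant 1, 0.00222 in mutant 2, 0.00416 in Wnt1-Ribotag 1 and 0.00298 in Wnt1-Ribotag 2.

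Genes of the adrenal cortex, a tissue outside the neural crest, were looked at after Star and Cyp21a1 had been seen among the called genes, so this list was chosen with its values known. Star, which carries cholesterol into mitochondria, was at 1.49 in mutant 1, 1.54 in mutant 2, 12.3 in Wnt1-Ribotag 1 and 8.54 in Wnt1-Ribotag 2, and 1.53 in wild-type 5 and 1.77 in wild-type 6. Cyp21a1, a steroid hydroxylase, was at 0.0182 in mutant 1, 0.0128 in mutant 2, 2.88 in Wnt1-Ribotag 1 and 3.78 in Wnt1-Ribotag 2, and 0.0390 in wild-type 5 and 0.0171 in wild-type 6. Both were higher in each tagged library than in each of the others, with log2 fold changes of 2.42 ± 0.27 (SE; limma, adjusted p = 0.0192) and 2.88 ± 0.35 (SE; limma, adjusted p = 0.0227). Cyp11b1, which makes corticosterone, was at 0.00301 in mutant 1, 0.00342 in mutant 2, 5.79 in Wnt1-Ribotag 1 and 1.92 in Wnt1-Ribotag 2, and Nr5a1, the factor that directs steroidogenic cells, at 0.0218 in mutant 1, 0.0282 in mutant 2, 0.757 in Wnt1-Ribotag 1 and 0.692 in Wnt1-Ribotag 2. The summed RPKM of the 9 genes was 2.28 in mutant 1, 2.33 in mutant 2, 26.5 in Wnt1-Ribotag 1, 33.1 in Wnt1-Ribotag 2, 3.32 in wild-type 5 and 2.57 in wild-type 6. Their part in the neuroblast and chromaffin results was not tested.

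**Figure D3:**
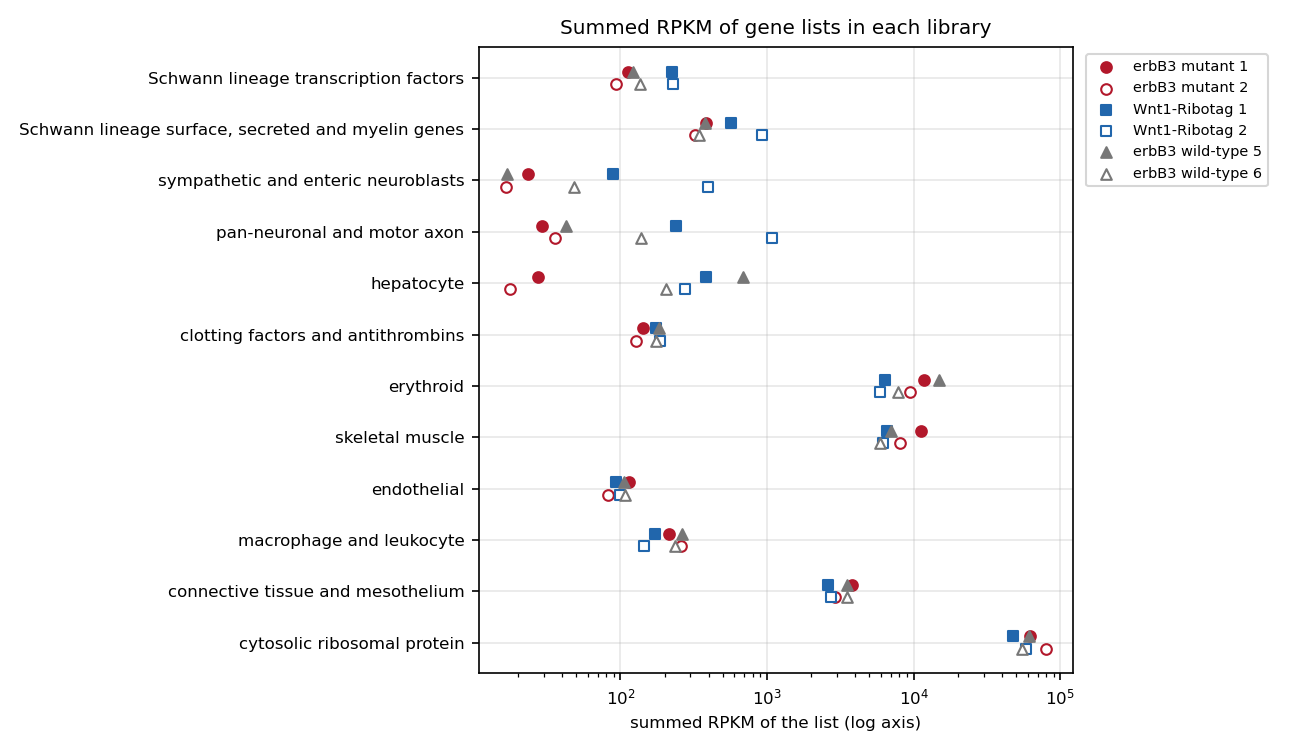
Summed RPKM of gene lists in each of the 6 libraries on a log axis, with color and marker for the group and a filled or open marker for the replicate. Schwann lineage lists are highest in the Wnt1-Ribotag libraries, the hepatocyte list is highest in wild-type 5 and lowest in the mutant, and muscle and ribosomal protein lists are not raised in tagged RNA over the mutant.

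Liver transcripts were a further large group among the genes higher in tagged RNA. The liver lies against the diaphragm, and fetal hepatocytes are not derived from the neural crest. Of 28 hepatocyte genes tested of 35 listed, 19 were called higher and 0 lower (all genes 1.02% and 0.175%). At least 2-fold higher in all pairs were 25 (all genes 3.34%), and the median log2 fold change was 2.70. Afp, alpha-fetoprotein, has its gene at GRCm38 chromosome 5, bases 90490737 to 90508907. It had the highest mean RPKM of the list, although Alb was above it in mutant 2. The RPKM of Afp was 6.35 in mutant 1, 3.24 in mutant 2, 98.5 in Wnt1-Ribotag 1 and 82.5 in Wnt1-Ribotag 2, and 200.2 in wild-type 5 and 74.1 in wild-type 6. Both tagged libraries were above both mutant libraries, and wild-type 5 was above all of them. The log2 fold change over the mutant was 4.16 ± 0.33 (SE; limma, adjusted p = 0.00934), and in limma fits with the wild-type libraries it was -0.43 for Wnt1-Ribotag over wild-type and -4.60 for mutant over wild-type.

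Alb, serum albumin, was at 6.24 in mutant 1, 3.57 in mutant 2, 94.3 in Wnt1-Ribotag 1 and 53.5 in Wnt1-Ribotag 2, and 174 in wild-type 5 and 48.2 in wild-type 6 (log2 fold change 3.77 ± 0.37 SE, limma adjusted p = 0.0136). Apoa2, an apolipoprotein, was at 0.930 in mutant 1, 0.537 in mutant 2, 21.5 in Wnt1-Ribotag 1 and 19.6 in Wnt1-Ribotag 2, and 22.4 in wild-type 5 and 6.44 in wild-type 6 (log2 fold change 4.11 ± 0.27 SE, limma adjusted p = 0.00641). Serpina6, which carries glucocorticoids in blood, was at 0.777 in mutant 1, 0.772 in mutant 2, 9.74 in Wnt1-Ribotag 1 and 8.43 in Wnt1-Ribotag 2, and 36.03 in wild-type 5 and 10.3 in wild-type 6 (log2 fold change 2.91 ± 0.26 SE, limma adjusted p = 0.0114). For each of these genes wild-type 5 was the highest library and the mutant libraries were the lowest. The 19 called members had log2 fold changes from 1.57, for Rbp4, to 4.16, for Afp. Serpina1a to Serpina1e are close paralogs whose reads could have been split between them. Added up, hepatocyte genes had an RPKM of 27.4 in mutant 1, 17.6 in mutant 2, 381 in Wnt1-Ribotag 1, 276 in Wnt1-Ribotag 2, 682 in wild-type 5 and 204 in wild-type 6. Median log2 differences of the list were 2.70 for Wnt1-Ribotag over mutant, 0.042 for Wnt1-Ribotag over wild-type and -2.64 for mutant over wild-type. The wild-type libraries differed in these genes, and the median of tagged RNA was -0.86 against wild-type 5 and 0.89 against wild-type 6. For the Schwann lineage surface genes these medians were 1.28 and 1.31. How far the precipitation or the dissection set the hepatocyte level was not tested. Calls in this list were 24 without Wnt1-Ribotag 1, 27 without Wnt1-Ribotag 2, 15 without mutant 1, 13 without mutant 2, and 0 without the filter on low values.

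Promoters of Afp, Alb and Fga, hepatocyte genes called higher, are given with a search of the whole hepatocyte list, which includes genes not called or not tested. RefSeq sequences on GRCm38.p6, from 250 bases before to 50 after a gene's start, were searched on both strands for GTTAAT, the half-site of the hepatocyte nuclear factor HNF1. It occurred in 15 of 32 promoters of the 29 list members found in the table (46.9%) and in 7.10% of all 32851 promoters. Of the 15, 5 belong to the close paralogs Serpina1a to Serpina1e, each counted on its own. In the same hepatocyte promoters ACAAAG, a SOX motif, occurred in 4, ACAATG in 0, CAGCTG, an E-box, in 4 and CAAAGTCCA, a motif of HNF4, in 0, beside 18.7%, 12.6%, 16.3% and 0.475% of all promoters. A search was taken as void where under 80% of a set's genes were in the promoter table. It was void for the genes called higher, of which 96 of 146 were there, for the clotting list, with 23 of 31, and for the Schwann lineage lists, with 13 of 19 transcription factors and 22 of 35 surface genes. These matches describe the letters of the windows and were not tested. The promoters of Afp, Alb and Fga follow, with matches to GTTAAT or its reverse complement in capitals.
Afp, chr5:90490464-90490763, plus strand: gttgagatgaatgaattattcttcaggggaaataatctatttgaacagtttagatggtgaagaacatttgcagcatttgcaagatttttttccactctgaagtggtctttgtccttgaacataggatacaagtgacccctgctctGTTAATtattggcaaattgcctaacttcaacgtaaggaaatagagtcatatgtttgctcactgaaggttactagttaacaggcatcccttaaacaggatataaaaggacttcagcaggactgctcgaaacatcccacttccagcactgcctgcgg
Alb, chr5:90460620-90460919, plus strand: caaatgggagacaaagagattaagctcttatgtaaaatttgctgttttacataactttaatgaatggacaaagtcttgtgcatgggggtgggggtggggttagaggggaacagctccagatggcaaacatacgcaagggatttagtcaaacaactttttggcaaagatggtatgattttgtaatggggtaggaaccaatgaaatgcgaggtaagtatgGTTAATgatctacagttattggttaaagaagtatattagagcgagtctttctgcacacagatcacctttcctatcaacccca
Fga, chr3:83025903-83026202, plus strand: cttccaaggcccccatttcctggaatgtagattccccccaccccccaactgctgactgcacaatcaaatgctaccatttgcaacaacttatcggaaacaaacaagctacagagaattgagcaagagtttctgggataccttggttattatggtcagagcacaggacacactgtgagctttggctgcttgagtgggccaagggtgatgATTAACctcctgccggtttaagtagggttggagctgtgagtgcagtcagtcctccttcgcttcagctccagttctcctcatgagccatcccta

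Clotting factors and antithrombins, which the liver and other tissues make, gave 1 call higher and 0 lower among 20 tested of 31 listed (all genes 1.02% and 0.175%). At least 2-fold higher in all pairs were 6 (all genes 3.34%), and the median log2 fold change was 0.74. Calls of this list changed to 7 higher and 0 lower without Wnt1-Ribotag 1, 8 higher and 2 lower without Wnt1-Ribotag 2, 1 higher and 0 lower without mutant 1 and 1 higher and 0 lower without mutant 2, and to 0 with quantile normalization or without the filter on low values. Serpinf2, the plasmin inhibitor, was the gene called, at 0.365 in mutant 1, 0.180 in mutant 2, 7.62 in Wnt1-Ribotag 1 and 4.14 in Wnt1-Ribotag 2, and 10.7 in wild-type 5 and 2.96 in wild-type 6 (pairs from 2.42 to 3.58 on the log2 scale, adjusted p = 0.0246 in limma). Serpinc1, antithrombin III, was at 0.191 and 0.0800 in mutant 1 and 2 and 1.10 and 1.19 in Wnt1-Ribotag 1 and 2. Its groups did not overlap and it was not called (log2 fold change 1.38 ± 0.39 SE, limma adjusted p = 0.156). Serpind1, heparin cofactor II, was at 0.171 and 0.134 in mutant 1 and 2 and 4.07 and 1.22 in Wnt1-Ribotag 1 and 2, also without overlap and not called (log2 fold change 2.10 ± 0.52 SE, limma adjusted p = 0.126). It was called in 3 of 13 alternatives, with the replicate block and without either Wnt1-Ribotag library, and its log2 fold change was 1.40 without Wnt1-Ribotag 1, 2.81 without Wnt1-Ribotag 2, 2.14 without mutant 1 and 2.06 without mutant 2. Serpine2, a protease inhibitor of many cell types, was the most abundant of the list, at 29.5 in mutant 1, 32.1 in mutant 2, 55.6 in Wnt1-Ribotag 1 and 90.6 in Wnt1-Ribotag 2, and 42.7 in wild-type 5 and 36.1 in wild-type 6 (log2 fold change 1.19 ± 0.28 SE, limma adjusted p = 0.116). It was not called here but was in 4 of 13 alternatives, these and the fit with all 6 libraries. It was highest in tagged RNA, unlike Serpinc1, for which wild-type 5 was highest at 3.15. Summed over the list, the RPKM was 142 in mutant 1, 129 in mutant 2, 176 in Wnt1-Ribotag 1, 186 in Wnt1-Ribotag 2, 183 in wild-type 5 and 174 in wild-type 6.

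Some genes were high in tagged RNA and near the mutant level in wild-type muscle. Sptb, the beta-spectrin of red cells, has its gene at GRCm38 chromosome 12, bases 76580488 to 76710547 and had the largest fold change of the genes called. Its RPKM was 2.54 in mutant 1, 0.738 in mutant 2, 1479 in Wnt1-Ribotag 1 and 1114 in Wnt1-Ribotag 2, and 3.27 in wild-type 5 and 2.36 in wild-type 6. The tagged libraries were far above the 4 whole-muscle libraries (log2 fold change 9.37 ± 0.43 SE, limma adjusted p = 0.00299). Birc6, a large ubiquitin ligase, was at 9.20 in mutant 1, 7.34 in mutant 2, 139.6 in Wnt1-Ribotag 1 and 435 in Wnt1-Ribotag 2, and 9.52 in wild-type 5 and 10.8 in wild-type 6 (log2 fold change 4.82 ± 0.50 SE, limma adjusted p = 0.0140). Unc13b, a protein of vesicle release, was at 1.40 in mutant 1, 1.78 in mutant 2, 30.6 in Wnt1-Ribotag 1 and 82.1 in Wnt1-Ribotag 2, and 2.20 in wild-type 5 and 2.26 in wild-type 6 (log2 fold change 4.60 ± 0.45 SE, limma adjusted p = 0.0136). Where in these genes the reads lie cannot be seen from RPKM, so the values are of reads assigned to the gene and may not measure the whole transcript. In each of these the wild-type values lay near those of the mutant, unlike Sox10, Gjc3 and Gpr17, which wild-type muscle held above the mutant. The part of the tagged alleles, the precipitation and the low RNA input in these levels was not tested.

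Transcripts of red cells did not move together. The erythroid list had 20 genes, of which 4 genes were called higher and 0 lower among 19 tested (all genes 1.02% and 0.175%). At least 2-fold higher in all pairs were 7 (all genes 3.34%), with a median of 0.99. Leaving out libraries gave 9 higher and 2 lower without Wnt1-Ribotag 1, 9 higher and 1 lower without Wnt1-Ribotag 2, 4 higher and 0 lower without mutant 1 and 1 higher and 0 lower without mutant 2, while quantile normalization gave 1 higher and the fit without the filter 0. The list had 6 higher and 5 lower with the replicate number as a replicate block, and 7 higher and 0 lower with all 6 libraries. Ermap, a red cell surface protein, was at 0.966 and 0.425 in mutant 1 and 2 and 5.70 and 4.93 in Wnt1-Ribotag 1 and 2, and Rhd, a blood group protein, at 0.861 and 0.517 in mutant 1 and 2 and 5.31 and 4.15 in Wnt1-Ribotag 1 and 2. Both were higher in each tagged library and rose by 2.32 ± 0.33 (SE; limma, adjusted p = 0.0356) and 2.14 ± 0.31 (SE; limma, adjusted p = 0.0374). Globins did not follow them. Hba-a1, the most abundant gene of the list, was at 3818 in mutant 1, 3112 in mutant 2, 2193 in Wnt1-Ribotag 1 and 2102 in Wnt1-Ribotag 2, and 5095 in wild-type 5 and 2686 in wild-type 6 (log2 fold change -0.68 ± 0.26 SE, limma adjusted p = 0.228). Hbb-bs was at 2197 in mutant 1, 1726 in mutant 2, 1044 in Wnt1-Ribotag 1 and 889 in Wnt1-Ribotag 2 (log2 fold change -1.01 ± 0.26 SE, limma adjusted p = 0.132). Both globins were lower in each tagged library than in each mutant library and did not pass the test, although each passed with the replicate block. Red cell genes together had an RPKM of 11684 in mutant 1, 9479 in mutant 2, 6365 in Wnt1-Ribotag 1, 5873 in Wnt1-Ribotag 2, 14988 in wild-type 5 and 7799.5 in wild-type 6.

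Lists of other tissues of the diaphragm were counted in the same way. Of 39 skeletal muscle genes, limma called 0 higher and 1 lower, and 11 were lower at an unadjusted p under 0.05, with a median log2 fold change of -0.22. The call was Mylpf, a fast myosin light chain and the most abundant of the list, at 2325 in mutant 1, 2068 in mutant 2, 797 in Wnt1-Ribotag 1 and 795 in Wnt1-Ribotag 2, and 1293 in wild-type 5 and 995 in wild-type 6 (log2 fold change -1.46 ± 0.24 SE, limma adjusted p = 0.0496). Muscle calls were 0 higher and 3 lower without Wnt1-Ribotag 1, 1 higher and 3 lower without Wnt1-Ribotag 2, 0 higher and 0 lower without mutant 1 and 0 higher and 0 lower without mutant 2. The call of Mylpf was lost under 8 of 13 alternatives. With the replicate number as a replicate block, 1 muscle gene was called higher and 6 lower, and with all 6 libraries 0 higher and 2 lower. The summed RPKM of muscle genes was 11285 in mutant 1, 8013 in mutant 2, 6542 in Wnt1-Ribotag 1, 6215 in Wnt1-Ribotag 2, 7025 in wild-type 5 and 5922 in wild-type 6, so that transcripts of muscle were abundant in the precipitated RNA. The median log2 difference of muscle genes was 0.038 for Wnt1-Ribotag over wild-type, so the precipitate held them near the level of whole wild-type muscle. Tnmd, tenomodulin of tendon, was the call among 25 connective tissue and mesothelium genes, at 54.1 in mutant 1, 64.95 in mutant 2, 9.66 in Wnt1-Ribotag 1 and 17.1 in Wnt1-Ribotag 2, and 21.02 in wild-type 5 and 18.8 in wild-type 6 (log2 fold change -2.16 ± 0.31 SE, limma adjusted p = 0.0356). With libraries left out that list had 0 higher and 7 lower without Wnt1-Ribotag 1, 1 higher and 5 lower without Wnt1-Ribotag 2, 0 higher and 1 lower without mutant 1 and 0 higher and 0 lower without mutant 2. Its median was -0.38, 1 was higher and 7 lower at an unadjusted p under 0.05, and its summed RPKM was 3783 in mutant 1, 2896 in mutant 2, 2611 in Wnt1-Ribotag 1, 2711 in Wnt1-Ribotag 2, 3529 in wild-type 5 and 3526 in wild-type 6. Of the connective tissue list, 5 were called lower with the replicate block and 4 with all 6 libraries.

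Among 18 endothelial genes, limma called 0, and 1 was higher and 2 lower at an unadjusted p under 0.05, with a median of -0.048 and a summed RPKM of 115 in mutant 1, 82.5 in mutant 2, 93.2 in Wnt1-Ribotag 1, 98.7 in Wnt1-Ribotag 2, 105 in wild-type 5 and 108 in wild-type 6. Endothelial calls were 1 higher and 2 lower without Wnt1-Ribotag 1, 0 higher and 1 lower without Wnt1-Ribotag 2, 0 higher and 0 lower without mutant 1 and 0 higher and 0 lower without mutant 2. Of 16 macrophage and leukocyte genes, limma called 0, with 1 higher and 7 lower at an unadjusted p under 0.05 and a median of -0.64. Of this list, 3 were called lower with the replicate number as a replicate block and 3 with all 6 libraries. The calls were 0 higher and 7 lower without Wnt1-Ribotag 1, 1 higher and 6 lower without Wnt1-Ribotag 2, 0 higher and 0 lower without mutant 1 and 0 higher and 0 lower without mutant 2. The list's summed RPKM was 215 in mutant 1, 260.0 in mutant 2, 172 in Wnt1-Ribotag 1, 146 in Wnt1-Ribotag 2, 262 in wild-type 5 and 234 in wild-type 6. C1qc, a complement subunit of macrophages, was at 24.7 and 29.5 in mutant 1 and 2 and 11.7 and 12.6 in Wnt1-Ribotag 1 and 2 and did not pass (log2 fold change -1.12 ± 0.22 SE, limma adjusted p = 0.0803), although 4 of 13 alternatives called it. Of 7 chondrocyte genes tested, limma called 0, with 3 higher at an unadjusted p under 0.05 and a median of 0.73, and the higher calls were 4 without Wnt1-Ribotag 1, 3 without Wnt1-Ribotag 2, 0 without mutant 1 and 0 without mutant 2. Immediate early genes, which respond to handling of tissue, gave 0 calls in limma among 25 tested, 2 higher and 1 lower at an unadjusted p under 0.05 and a median of 0.064, with 2 higher and 0 lower without Wnt1-Ribotag 1, 2 higher and 2 lower without Wnt1-Ribotag 2, 0 higher and 0 lower without mutant 1 and 0 higher and 0 lower without mutant 2.

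Classes of RNA that a ribosome precipitation might hold unevenly were counted too. Of 20 long non-coding RNAs listed as nuclear, 8 were in the files, and Malat1 and Neat1 were not. The list gave 0 calls in limma among 8 tested, 3 higher at an unadjusted p under 0.05 and a median of 0.58, with 4 higher and 1 lower without Wnt1-Ribotag 1, 1 higher and 0 lower without Wnt1-Ribotag 2, 0 higher and 0 lower without mutant 1 and 0 higher and 0 lower without mutant 2. Its summed RPKM was 6108 in mutant 1, 5469 in mutant 2, 8859.7 in Wnt1-Ribotag 1, 6561 in Wnt1-Ribotag 2, 5891 in wild-type 5 and 5205 in wild-type 6. Most of it was H19, at 8341 in Wnt1-Ribotag 1, an RNA also found in the cytoplasm, so the list is no measure of nuclear RNA. Replication-dependent histones gave 0 calls in limma among 45 tested, with 1 higher and 11 lower at an unadjusted p under 0.05 and a median of -0.55. Histone calls were 1 higher and 6 lower without Wnt1-Ribotag 1, 1 higher and 26 lower without Wnt1-Ribotag 2, 0 higher and 0 lower without mutant 1 and 0 higher and 0 lower without mutant 2. Cytosolic ribosomal protein genes gave 0 calls in limma among 78 tested, 1 higher and 24 lower at an unadjusted p under 0.05 and a median of -0.46. Ribosomal protein calls were 2 higher and 0 lower without Wnt1-Ribotag 1, 1 higher and 5 lower without Wnt1-Ribotag 2, 0 higher and 0 lower without mutant 1 and 0 higher and 0 lower without mutant 2, and those lower were 29 with the replicate number as a replicate block and 7 with all 6 libraries. The summed RPKM of the ribosomal protein genes was 62108 in mutant 1, 79769 in mutant 2, 47352 in Wnt1-Ribotag 1, 58501 in Wnt1-Ribotag 2, 61163 in wild-type 5 and 54741 in wild-type 6. No identifier of a mitochondrially encoded gene was found in the files.

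Genes that fell were of several RNA classes. Of the 25 genes called lower, 10 were protein coding, 5 were microRNA genes, and 8 were at the floor in both Wnt1-Ribotag libraries. Of the 14325 genes tested, 13267 were protein coding (92.6%), 36 were microRNA genes (0.251%), and 23 were at the floor in both. Genes at that floor could pass the filter only through their mutant values, so they could only be lower. The counts at the floor are therefore not read as a result. Gm9801, a long non-coding RNA gene, was at 6.41 in mutant 1, 9.86 in mutant 2, 0.204 in Wnt1-Ribotag 1 and 0.146 in Wnt1-Ribotag 2, and 8.39 in wild-type 5 and 12.6 in wild-type 6 (log2 fold change -3.65 ± 0.33 SE, limma adjusted p = 0.0114). Mir1188, a microRNA gene, was at 7.84 in mutant 1, 4.34 in mutant 2, 0.220 in Wnt1-Ribotag 1 and 0.158 in Wnt1-Ribotag 2, and 7.01 in wild-type 5 and 4.93 in wild-type 6 (log2 fold change -3.21 ± 0.37 SE, limma adjusted p = 0.0194). Snord69, a small nucleolar RNA gene, was at 3.73 in mutant 1, 4.13 in mutant 2, 0.199 in Wnt1-Ribotag 1 and 0.0712 in Wnt1-Ribotag 2, and 2.68 in wild-type 5 and 5.04 in wild-type 6 (log2 fold change -2.81 ± 0.33 SE, limma adjusted p = 0.0198). In these genes wild-type muscle was near the mutant, and the tagged libraries were at or near the floor. A floor value follows the depth of its library, so these SE and adjusted p do not measure a spread of tagged RNA. The direction of such falls was set by the filter. Mir671 was at 3.90 and 2.13 in mutant 1 and 2 and 0.0815 and 0.0584 in Wnt1-Ribotag 1 and 2, and Mir22 at 3.55 and 2.10 in mutant 1 and 2 and 0.0840 and 0.0602 in Wnt1-Ribotag 1 and 2. These microRNA genes fell by 2.58 and 2.51 on the log2 scale. With tagged values at or near the floor the size of all these falls, Gm9801, Mir1188 and Snord69 included, depends on the pseudocount. Those of Mir671 and Mir22 were 4.14 and 4.05 with a pseudocount of 0.1 and 1.87 and 1.81 with 1. Both calls were lost with a pseudocount of 1 and with quantile normalization, and that of Mir22 also with a filter at a mean RPKM of 1. Without the filter on low values, none of Gm9801, Mir1188, Snord69, Mir671 and Mir22 was called. The falls of Snord69, Mir671 and Mir22 did not pass without mutant 1 or without mutant 2, that of Mir1188 did not pass without mutant 1, and that of Gm9801 did not pass without mutant 2.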

How the data were processed

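Diaphragm RNA of mouse embryos was sequenced in 6 libraries, of which 4 were compared. The authors deposited RPKM for each library, with a mark for genes at a floor value (other, a 0 or 1 flag). The submitters' processing notes name STAR and mm9; the annotation, the strand setting and the program behind the RPKM are not given in the sources used here. Of 23076 identifiers, 3 held no value. GENCODE M21 (GRCm38) gave symbols and positions for 21586 of them by identifier, and not for 1490. Depth was read from the floor of microRNA genes, taken as 1 read and with lengths corrected by 2 bases; read counts were not used, and counting error was not computed.

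The test used log2(RPKM + 0.5) of genes averaging 0.5 RPKM or more in the 4 libraries, with limma 3.58.1 in R 4.3.3 (eBayes, trend on), without a block, with Benjamini-Hochberg adjustment over all genes tested and a threshold of 0.05. The labels call the libraries biological replicates, 2 per group, and p-values measure the spread between them. The fits of Wnt1-Ribotag and of mutant against wild-type were made in the same way. Gene lists, 20 in all, were described by counts, medians and summed RPKM, without a set test. Named were the marker and tagged genes, the 20 largest rises and 8 largest falls among genes called with the same sign in all 4 pairs, the 3 members of each list with the highest mean, and called list members; values are printed for part of these 116 genes, taken after they were seen, and results for 5 genes are not reported here. Members and lists were chosen with earlier results of these data known. Alternatives were other pseudocounts, filters and scalings, no trend, all 6 libraries, a block by replicate number and each library left out. The fit was also run on simulated data, whose outcome is not reported here and is not used for any result. Python 3.11.15 with pandas 2.3.3, numpy 2.4.6 and matplotlib 3.10.9 made tables and figures.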

Additional observations from a re-analysis of the deposited data

How the results depend on the processing

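The number of genes called, 171 (146 higher and 25 lower), was 692 (459 and 233) with all 6 libraries in a fit, 112 (13 and 99) without a filter, where 23073 genes were tested, and 83 (69 and 14) with quantile normalization; median-ratio scaling gave 16 lower. With a library left out it ranged from 112 to 3672, higher calls from 108 to 1989 and lower calls from 4 to 1683; a lone library was assumed to vary like the other group. The share of higher calls among all was 85.4%, and 11.6% without a filter, 66.3% with all 6 libraries, 54.2% without Wnt1-Ribotag 2 and 96.4% without mutant 2. With the replicate number as a replicate block, 842 genes were called, 578 higher and 264 lower, and 5 Schwann lineage transcription factors in place of 3. The numbers are shared by the labels, and nothing says that they mark a litter; deviations of same-numbered libraries had a correlation of 0.168 across genes.

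Schwann lineage transcription factors called higher, 3, were 0 without a filter and ranged from 3 to 9 with a library left out. Surface, secreted and myelin genes, 13, were 1 and ranged from 13 to 24, and hepatocyte genes, 19, were 0 and ranged from 13 to 27. Genes at least 2-fold different in all pairs, 566 (479 higher and 87 lower), were 1440 (986 and 454) at 1.5-fold and 134 (119 and 15) at 4-fold; those lower were 157 with a pseudocount of 0.1 and 57 with 1. Leaving out a library, chosen after seeing the data, gave 706 to 1652 in all, 559 to 1098 higher and 147 to 554 lower.

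Of the 58 genes named by the rule whose comparison is printed, 42 were no longer called without a filter and 18 with quantile normalization, and no gene called changed sign. Rpl22, not called, had a log2 fold change of 0.10 with quantile normalization and from -0.32 to 0.016 with a library left out, and Cryab, not called, one of 0.0038 with quantile normalization, which moved the median of all genes from 0.036 to -0.068. The cause of these changes was not tested. Depth limits genes near the floor, and a change of low genes depends on the pseudocount.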
